A study of Mus musculus with 3 samples.

Results

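The library of MIN6 cells given an siRNA against Srsf1 (siSRSF1) was compared directly with the library of MIN6 cells given an siRNA against Srsf2 (siSRSF2). MIN6 is a mouse insulinoma line with properties of pancreatic beta cells. The labels also call the targets by older names, ASF for SRSF1 and SC35 for SRSF2. A library of cells that received a negative control siRNA (siNC) was sequenced too. Its levels are given for orientation and enter no ratio unless that is stated. Each group holds 1 library, so the differences have no replicate check, and there are no tests or p-values. The sources used here do not give the siRNA sequences, the dose or the time after transfection. All genes with at least 20 reads in the siSRSF1 or the siSRSF2 library were compared, which kept 11705 of 21899 gene symbols. The other 10194 had under 20 reads in both, and 5944 of these had no read in either. The totals were 14478045 reads for siSRSF1, 14682576 for siSRSF2 and 12688334 for siNC.

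SR proteins bind short sequences in pre-mRNA, recruit the spliceosome to nearby splice sites and, for some members, accompany the mRNA to export and translation. SRSF1 shuttles between nucleus and cytoplasm, while SRSF2 stays largely in the nucleus. In beta cells, a large part of protein synthesis is proinsulin, which is folded in the endoplasmic reticulum (ER). Stress there is met by sensors in its membrane. IRE1 (via XBP1) and ATF6 raise ER chaperones, and PERK, through phosphorylation of eIF2alpha, raises translation of ATF4. ATF4 activates genes of amino acid transport and synthesis, and other eIF2alpha kinases reach it without ER stress.

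Several of the gene groups described below have known promoter elements. Examples from the ATF4, ER chaperone, heat shock and mitosis lists are shown because their members are named below. The sequences are from RefSeq (GRCm38.p6), run 5′ to 3′ on the gene's strand, and hold the match with up to 30 bases on each side. Capitals mark matches to the element on either strand.
Slc7a11 (C/EBP-ATF response element, TGATGCAA, chr3:50443642-50443709, minus strand): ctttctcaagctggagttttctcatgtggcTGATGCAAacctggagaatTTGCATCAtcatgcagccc
Chac1 (the same element, chr2:119351019-119351086, plus strand): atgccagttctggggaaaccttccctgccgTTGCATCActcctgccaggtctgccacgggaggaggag
Pdia6 (ER stress element, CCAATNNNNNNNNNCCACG, chr12:17266461-17266539, plus strand): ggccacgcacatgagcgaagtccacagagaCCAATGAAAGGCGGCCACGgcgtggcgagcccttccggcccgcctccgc
Derl3 (the same element, chr10:75893212-75893290, plus strand): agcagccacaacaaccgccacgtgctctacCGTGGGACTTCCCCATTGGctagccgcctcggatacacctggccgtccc
Hspa1b (heat shock element, GAANNTTC, chr17:34959305-34959372, minus strand): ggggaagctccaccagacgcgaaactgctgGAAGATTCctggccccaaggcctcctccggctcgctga
Kif14 (cell cycle genes homology region, TTTGAA, chr1:136467598-136467655, plus strand): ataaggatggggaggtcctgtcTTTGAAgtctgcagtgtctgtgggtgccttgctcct

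Promoters of 250 bases before to 50 after the start were found for 9383 of the compared genes, and both strands were searched. The ATF4 element, searched after the values were seen, was in 7 of 28 promoters of the ATF4 list, against 0.778% of promoters of all compared genes. The ER stress element, which contains a CCAAT box, was in 9 of 35 promoters of the ER chaperone list, against 0.171%. The heat shock element was in 14 of 34 promoters of the heat shock list, against 6.85%. TTTGAA was in 37 of 52 promoters of the list of G2 and mitosis, against 14%. Among the genes called apart, the shares were smaller than in these lists. The ATF4 element was in 7 of 220 promoters (3.18%) of genes higher in siSRSF2, against 0.778%. It was in 3 of 176 (1.7%) of genes higher in siSRSF1. The ER stress element was in 0 and 2 (1.14%) of these promoters, against 0.171%. The heat shock element was in 8.18% and 11.4%, against 6.85%, and TTTGAA in 14.1% and 17%, against 14%. TGANTCA (AP-1) was in 11.8% and 8.52%, against 5.77%, and CACGTG (E-box) in 5.91% and 6.25%, against 12%. CCAAT was in 51.8% and 51.1%, against 43.8%, and TGACGTCA (CRE) in 2.73% and 1.14%, against 3.9%. A match is a run of letters, and binding was not measured.

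The targets were read first. Srsf1 (chr11:88047373-88053755, GRCm38) stood at 324 CPM (scaled counts relative to the library total) in siNC, 221 in siSRSF1 and 274 in siSRSF2. The siSRSF1 library was the lowest of the 3, at 0.683 of siNC, and its ratio to siSRSF2 was 0.807 (95% counting interval 0.770 to 0.846). Srsf2 (chr11:116849901-116853094) stood at 94.9 CPM in siNC, 90.9 in siSRSF1 and 32.5 in siSRSF2. Its ratio of siSRSF1 to siSRSF2 was 2.79 (2.52 to 3.11). Relative to siNC, Srsf2 stood at 0.343 in its own siRNA library, a larger step than that of Srsf1, and each target was lowest in the library labelled with its siRNA. Protein levels were not measured.

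Most genes lay close together in the pair. The ratio of siSRSF1 to siSRSF2 was within 1.5-fold for 85.2% of genes, and the 5th and 95th percentiles were 0.593 and 1.57. A gene is named called below if the pair differed at least 2-fold with a 95% counting interval that excluded 1, which covers counting error only. By this rule 230 genes (1.96%) were higher in siSRSF1 and 281 (2.4%) were higher in siSRSF2. Many of these calls rest on few reads, since 222 of the 511 had under 20 reads in one of the libraries. When 100 reads or more were required in the higher library, 87 and 108 of 10156 were called. When 1000 or more were required, 25 and 10 of 3896 were called, so well-read genes called apart were more often the ones higher in siSRSF1. The median log2 ratio over all compared genes was -0.0054, with 49.3% of genes above 0. Gene lists are read against these values.

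**Figure D1:**
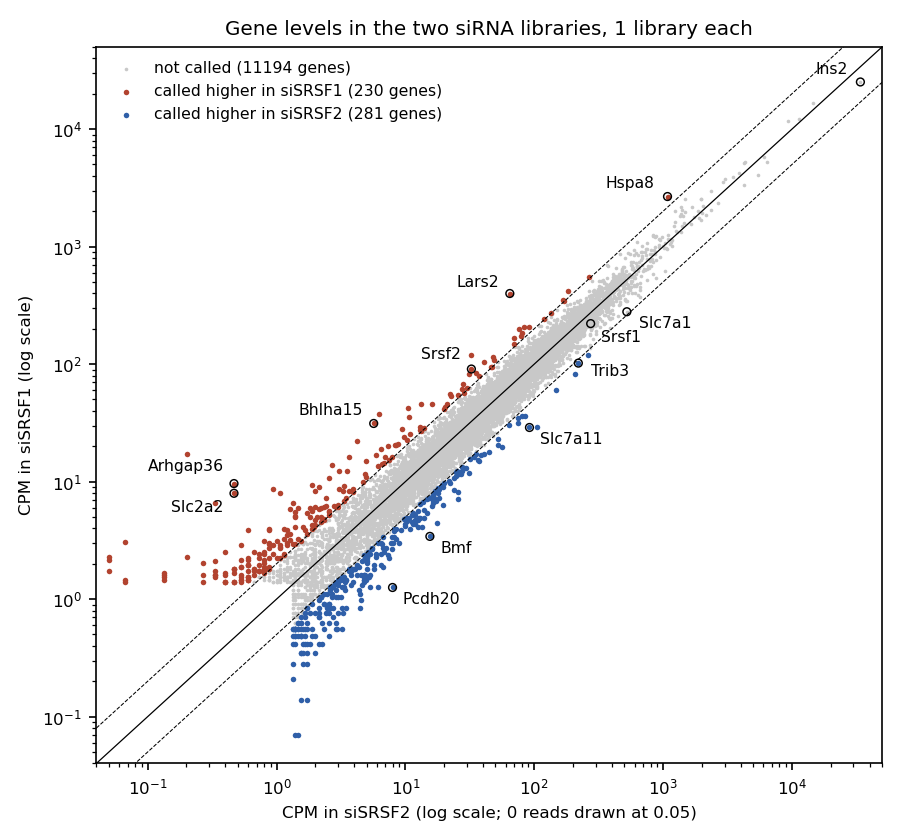
Level of each compared gene in CPM in the siSRSF2 library (x, log scale) and the siSRSF1 library (y, log scale), with 1 library each. The solid line marks equal levels and the dashed lines a 2-fold difference; red and blue points are the 230 and 281 genes called higher in siSRSF1 and siSRSF2, and most of them lie at low levels.

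The level in siNC was set beside those of the called genes. It lay between the pair, or equal to one of them, for 166 of the 230 genes higher in siSRSF1 and for 213 of the 281 higher in siSRSF2. Of the first set, siSRSF1 was at least 2-fold above siNC for 94 genes, and siSRSF2 was at most 0.5 of siNC for 68. Of the second set, siSRSF2 was at least 2-fold above siNC for 95 and siSRSF1 was at most 0.5 of it for 75. For 78 and 116 genes neither siRNA library was 2-fold from siNC. Both ratios to siNC share that library, and both increased with transcript GC content across genes (Spearman's rho 0.326 for siSRSF1 and 0.157 for siSRSF2, a description over genes). Positions relative to siNC are therefore given as values.

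The list of ATF4 and amino acid stress genes and the list of ER folding leaned in opposite directions. Some other lists had larger medians toward siSRSF1 than ER folding, among them cholesterol and fatty acid synthesis (0.51) and tubulins and stathmins (0.60). In the ATF4 list, 27 of 32 members were higher in siSRSF2, with a median log2 ratio of -0.58, and 2 were called, Slc7a11 and Trib3. In the list of the unfolded protein response and ER chaperones, 34 of 41 were higher in siSRSF1, with a median of 0.43, and 2 were called, Sdf2l1 and Dnajb9. Against siNC the ATF4 list had a median log2 ratio of 0.07 in siSRSF1 and 0.66 in siSRSF2. The ER list had -0.09 and -0.44. In both lists the siSRSF1 library was thus nearer to siNC.

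Within the ATF4 list, amino acid transporters had some of the lowest ratios. Slc7a11 (chr3:49892526-50443614), the cystine and glutamate exchanger, stood at 29.5 CPM in siNC, 28.9 in siSRSF1 and 91.8 in siSRSF2. The first 2 were close and siSRSF2 alone was high, with a pair ratio of 0.315 (0.281 to 0.351). Slc7a1, which carries arginine and lysine, had 266, 279 and 523 CPM in the same order and a ratio of 0.534 (0.513 to 0.554). Slc1a4, a transporter of neutral amino acids that was not in the list, was called, with 81.1, 82.1 and 206 CPM and a ratio of 0.399 (0.372 to 0.427). Slc38a2, which carries glutamine and other neutral amino acids, had a different order, with 591 CPM in siNC, 372 in siSRSF1 and 662 in siSRSF2.

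Regulators and feedback genes of the same response were next. Trib3, a pseudokinase that restrains ATF4 and AKT, stood at 88.9 CPM in siNC, 102 in siSRSF1 and 220 in siSRSF2, a ratio of 0.464 (0.436 to 0.493). Cebpg, a dimer partner of ATF4, stood at 158, 137 and 268 CPM, a ratio of 0.509 (0.482 to 0.538), just inside the 2-fold limit. Chac1, which degrades glutathione, stood at 171, 146 and 272 CPM, a ratio of 0.539. Sesn2, an inhibitor of mTORC1 that senses leucine, had 165, 165 and 288 CPM. Ddit3 (CHOP), a transcription factor of prolonged stress, had 53.3, 48.6 and 79.5 CPM. In all of them siSRSF2 was the highest library and siSRSF1 lay nearer to siNC.

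Enzymes of amino acid synthesis had ratios closer to 1. Phgdh and Psat1, of serine synthesis, had ratios of 0.647 (0.618 to 0.678) and 0.701 (0.678 to 0.725). Asns, asparagine synthetase, had 425 CPM in siNC, 406 in siSRSF1 and 534 in siSRSF2. Cbs, of cysteine synthesis, went the other way, with 148, 250 and 188 CPM and a ratio of 1.32. Atf4 itself had nearly the same mRNA level in the pair, 475 CPM in siSRSF1 and 465 in siSRSF2, with 514 in siNC and a ratio of 1.02 (0.988 to 1.06). ATF4 protein was not measured. Cytosolic aminoacyl-tRNA synthetases, which include ATF4 targets and charge tRNAs with amino acids, had a median log2 ratio of -0.15 with 14 of 23 higher in siSRSF2 and none called. Tars, for threonine, had the lowest ratio of them, 0.718, while Aimp2, a scaffold of the synthetase complex, had 1.54.

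On the ER side, chaperones and folding enzymes were higher in siSRSF1 by small steps. Sdf2l1, a partner of BiP, stood at 121 CPM in siNC, 148 in siSRSF1 and 69.7 in siSRSF2, with a ratio of 2.13 (1.98 to 2.30). Dnajb9, a BiP co-chaperone, stood at 249, 241 and 120 CPM, with a ratio of 2.01 (1.90 to 2.13). Manf, a secreted ER stress protein that supports beta cells in mice, had 185, 158 and 88.8 CPM. In all 3 the siSRSF2 library was the low one. Hspa5, which encodes BiP, had 2145, 1970 and 1486 CPM and a ratio of 1.33 (1.30 to 1.35). Xbp1, the transcription factor activated by IRE1, had 239, 242 and 149 CPM and a ratio of 1.62.

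Some ER genes lay on the other side. Ern1, which encodes IRE1, had 310 CPM in siNC, 267 in siSRSF1 and 411 in siSRSF2, and its ratio of 0.651 was the lowest of the list. Herpud1, of ER-associated degradation, had a ratio of 0.656 (0.624 to 0.689), and its promoter was the only one in the ER list that held the ATF4 element. Derl3, of the same pathway, had 99 and 155 reads and a ratio of 0.668 (0.51 to 0.86), and its promoter holds the ER stress element shown above. Pdia6, a disulfide isomerase with the same element, had 1121, 1211 and 861 CPM and a ratio of 1.41. Whether these matches bear on the ratios was not tested. Eif2ak3, which encodes PERK, had a ratio of 1.496, and Atf6 a ratio of 0.851.

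**Figure D2:**
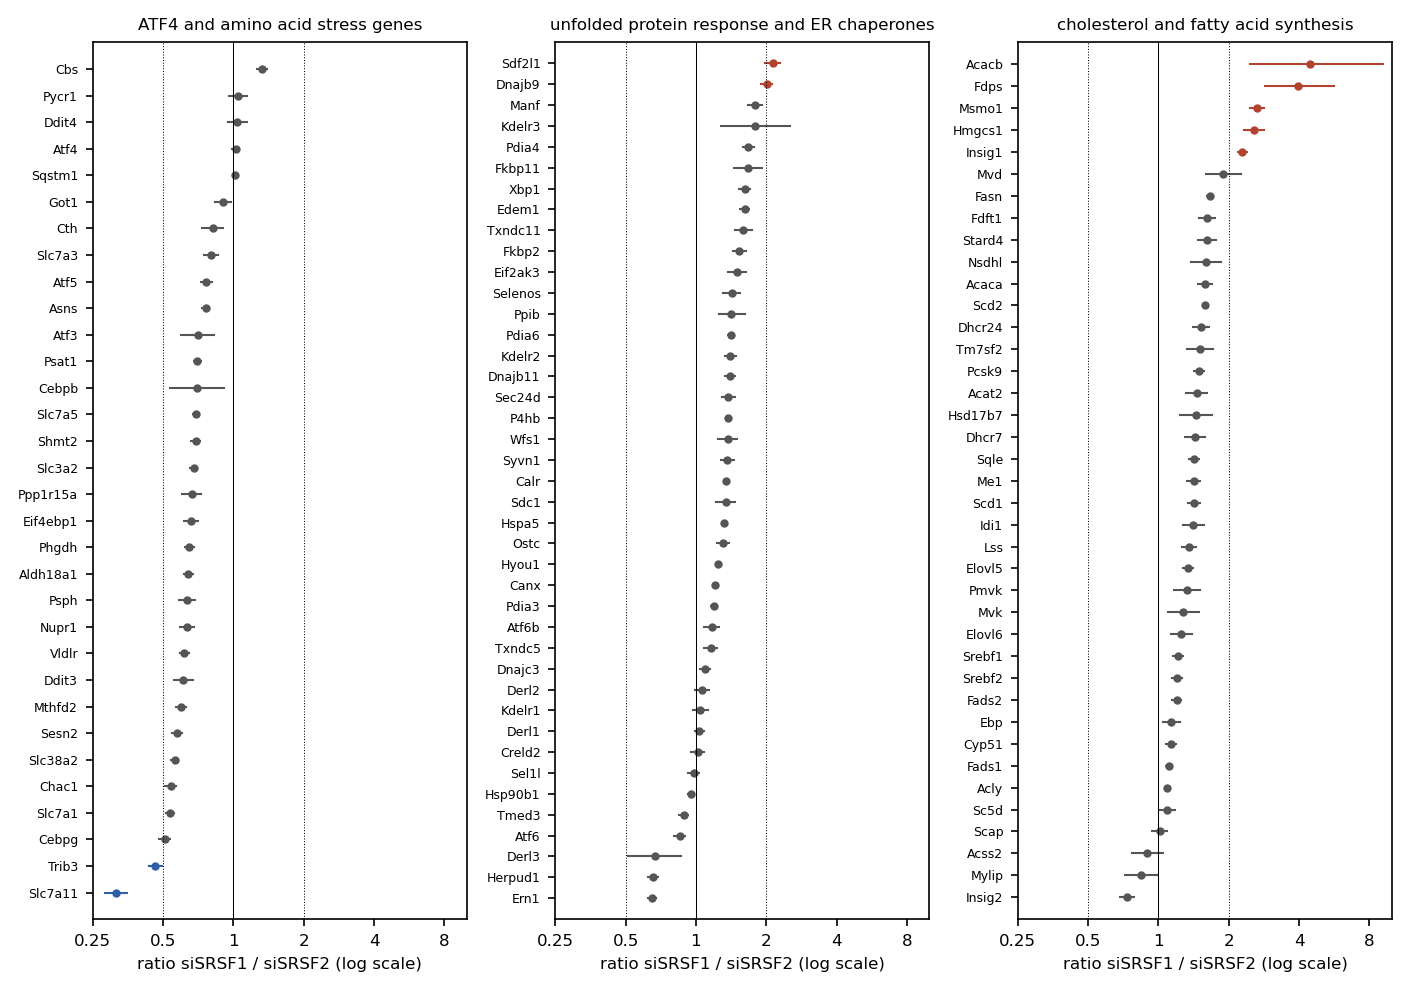
Ratio of siSRSF1 to siSRSF2 (x, log scale) for compared members of 3 gene lists (some members not drawn), ordered by ratio, with the 95% counting interval as a bar; red and blue mark called genes and dotted lines the 2-fold limits. Of the whole lists, 27 of 32 members of the ATF4 list had ratios below 1, and 34 of 41 of the ER chaperone list and 38 of 41 of the cholesterol and fatty acid list had ratios above it.

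Other steps of the secretory pathway leaned the same way as the chaperones. Of genes of ER translocation, 23 of 28 were higher in siSRSF1, with a median log2 ratio of 0.22 and none called. Ssr2, a subunit of the translocon-associated protein complex, had 280, 341 and 215 CPM in siNC, siSRSF1 and siSRSF2, and Sec61a1, the channel itself, had 597, 502 and 350. Genes of N-glycosylation had a median of 0.22 with 36 of 47 higher in siSRSF1 and 1 called. That gene, Gmppb, which makes GDP-mannose, had 64.0, 53.6 and 22.7 CPM and a ratio of 2.36 (2.07 to 2.69). Genes of COPI, COPII and Golgi transport had a median of 0.23, with 32 of 42 higher in siSRSF1 and none called. Surf4, a cargo receptor for ER export, had 798, 866 and 558 CPM. In all 3 lists the medians against siNC were lower in siSRSF2 (-0.35, -0.28 and -0.37) than in siSRSF1 (-0.10, -0.04 and -0.18).

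Well-read genes outside the lists included others of this compartment. Tmx1, a thioredoxin-like protein of the ER membrane, stood at 220, 208 and 82.7 CPM, a ratio of 2.51 (2.35 to 2.69). Gnptab, which tags lysosomal enzymes with mannose phosphate, stood at 90.9, 115 and 47.6 CPM, a ratio of 2.41 (2.21 to 2.64). In both, siSRSF2 was the low library.

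Sterol and lipid synthesis had the largest median of the metabolic lists. Of 41 genes of cholesterol and fatty acid synthesis, 38 were higher in siSRSF1, with a median log2 ratio of 0.51, and 5 were called, all in that direction. Against siNC the medians were 0.25 in siSRSF1 and -0.22 in siSRSF2, so siNC lay between the pair. SREBP2 drives the cholesterol enzymes and SREBP1 the fatty acid enzymes. Their own genes differed little, with ratios of 1.20 for Srebf2 and 1.21 for Srebf1.

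Hmgcs1, which makes HMG-CoA for the mevalonate pathway, stood at 103 CPM in siNC, 104 in siSRSF1 and 40.7 in siSRSF2, a ratio of 2.56 (2.33 to 2.82). Msmo1, a sterol demethylating enzyme, stood at 181, 200 and 76.0 CPM, a ratio of 2.63 (2.45 to 2.82). These 2 were low in siSRSF2 alone. Insig1, the ER anchor that holds back SREBP, stood at 268, 420 and 184 CPM, a ratio of 2.28 (2.18 to 2.39), and both siRNA libraries lay away from siNC on opposite sides. Fdps, farnesyl diphosphate synthase, had only 55, 175 and 46 reads and a ratio of 3.94 (2.86 to 5.63). Acacb, the mitochondrial acetyl-CoA carboxylase, had 15, 57 and 13 reads and a ratio of 4.45 (2.48 to 9.12). In these 2 the siSRSF1 library was the high one.

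Other members had steps under 2-fold. Fasn, fatty acid synthase, stood at 623, 888 and 535 CPM, a ratio of 1.66. Insig2, another SREBP anchor, had the lowest ratio, 0.733 (0.682 to 0.787). A sterol element (ATCACNCCAC, searched after the values were seen) was found in no promoter of this list and in none of the genes called apart. It was in only 18 of 9383 promoters (0.192%) of all compared genes, so its absence from these smaller sets is near that share.

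Chaperones of the cytosol showed a few large steps. Hspa8, which encodes the constitutive HSC70, stood at 2688 CPM in siNC, 2669 in siSRSF1 and 1082 in siSRSF2. The first 2 libraries were nearly equal, and the pair ratio was 2.47 (2.42 to 2.51), on 38254 and 16205 reads. Hspa1b, an inducible HSP70 gene, had 196, 271 and 97 reads and a ratio of 2.91 (2.31 to 3.72), and its near-identical neighbour Hspa1a had 58, 87 and 35 reads and a ratio of 2.57. Reads of these 2 genes may be shared between them. Hsph1, an HSP110 nucleotide exchange factor, had a ratio of 1.87 (1.75 to 2.002). Over the list, 33 of 43 were higher in siSRSF1, the median log2 ratio was 0.27 and these 3 HSP70 genes were the ones called. Hsf1, the transcription factor of the heat shock response, had 39.2, 42.6 and 54.6 CPM, a ratio of 0.780.

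Proteasome subunits were higher in siSRSF1 by small steps. Of 35 subunits 33 were higher in siSRSF1, with a median log2 ratio of 0.22, a highest ratio of 1.45 (Psmc5, an ATPase of the base) and none called. Glycolytic genes had a median of 0.34 with 22 of 27 higher in siSRSF1, among them Ldha, lactate dehydrogenase, at 299, 263 and 180 CPM in siNC, siSRSF1 and siSRSF2. Eno3, the muscle enolase, had 80 and 143 reads in the pair and a ratio of 0.586. Nuclear genes of the respiratory chain had a median of 0.19, with 59 of 74 higher in siSRSF1, and Ndufs4 of complex I had the highest ratio, 1.91. Mitochondrially encoded genes had a median of 0.32, with 10 of 11 higher in siSRSF1. Cytosolic ribosomal proteins had a median of 0.11 with 61 of 80 higher in siSRSF1, and the 1 called gene, Rps10, had 19 and 42 reads. For comparison, compared genes in the decile of shortest length had a median of 0.12, and those in the decile of most reads 0.09. The ribosomal median is near these values.

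**Figure D3:**
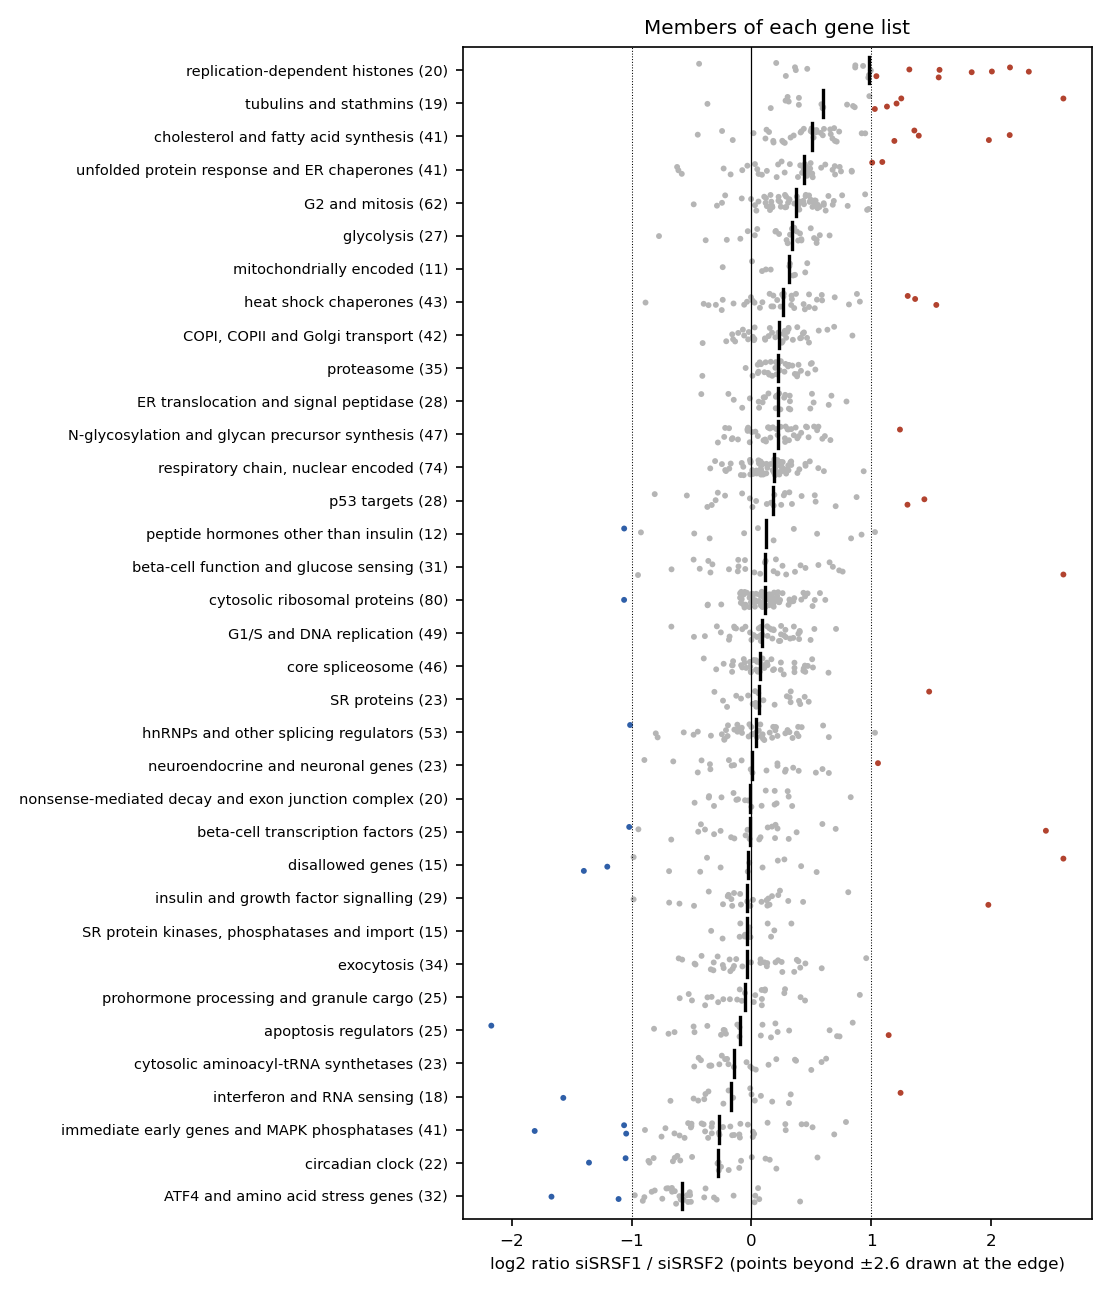
Log2 ratio of siSRSF1 to siSRSF2 for each compared member of the gene lists with at least 5 such members (number in brackets), with the list's median as a black bar; red and blue mark called genes and dotted lines a 2-fold difference. Lists run from the histones (median 0.98) to the ATF4 list (median -0.58).

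Genes of the mitotic spindle and of microtubules were mostly higher in siSRSF1 than in siSRSF2. Of 62 genes of G2 and mitosis, 56 were higher in siSRSF1, with a median log2 ratio of 0.37, and none was called. The scaled sums of reads over the list had a ratio of 1.31. Kif14, a kinesin of cytokinesis, stood at 31.5 CPM in siNC, 35.2 in siSRSF1 and 17.9 in siSRSF2, a ratio of 1.97 (1.69 to 2.29). Cdc20, the activator of the anaphase-promoting complex, stood at 109, 140 and 71.5 CPM, a ratio of 1.95 (1.81 to 2.10). Plk1, a mitotic kinase, stood at 55.9, 59.5 and 34.1 CPM. Against siNC the list's median was 0.01 in siSRSF1 and -0.35 in siSRSF2, so siSRSF1 was nearer to the 1 siNC library. Genes of G1/S and DNA replication had a smaller median, 0.09, with 35 of 49 higher in siSRSF1 and none called. Their 2 largest steps went in opposite directions, Tk1 (thymidine kinase) at 1.63 and Ccnd2 (cyclin D2) at 0.629. In bulk samples, fewer cells in a phase and less mRNA per cell cannot be told apart.

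Tubulins and stathmins had a median log2 ratio of 0.60, with 18 of 19 higher in siSRSF1 and 5 called. Tuba1a, an alpha-tubulin, stood at 129 CPM in siNC, 172 in siSRSF1 and 78.7 in siSRSF2, a ratio of 2.19 (2.04 to 2.35). Tuba4a stood at 119, 185 and 79.8 CPM, a ratio of 2.31 (2.16 to 2.48). Tubb4b, a beta-tubulin, stood at 288, 344 and 169 CPM, a ratio of 2.04. For these 3, siNC lay between the pair. Mapt, which encodes tau, was different: it stood at 28.5, 84.2 and 35.4 CPM, high in siSRSF1 only, with a ratio of 2.38 (2.14 to 2.64). Stmn4, a stathmin of neurons, was also high in siSRSF1 only, with 13, 124 and 14 reads and a ratio of 8.96 (5.31 to 17.4).

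Histone genes expressed with DNA replication had the highest median of the lists with at least 5 members compared, at low read numbers. Of 51 genes in the table only 20 reached 20 reads in either library, and 8 of these had under 20 in one of them, so these 8 passed only through the library where they were high. Among the 20, 19 were higher in siSRSF1, 8 were called in that direction, and the median log2 ratio was 0.98. H2bc4 stood at 182, 608 and 158 reads in siNC, siSRSF1 and siSRSF2, a ratio of 4.01 (3.37 to 4.82). H3c8 had 12, 135 and 28 reads, a ratio of 4.97 (3.33 to 7.86). The list also holds H1f0, a linker histone that is not tied to replication, which had 3036, 2380 and 3366 reads. The summed ratio over all 51 was 1.12, and without H1f0, left out after the values were seen, it was 1.47 (1.41 to 1.54). These mRNAs end in a stem-loop without a poly(A) tail, and the sources used here do not say whether poly(A) selection was used. Copies of histone genes are alike, so the reads of single copies are uncertain.

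**Figure D4:**
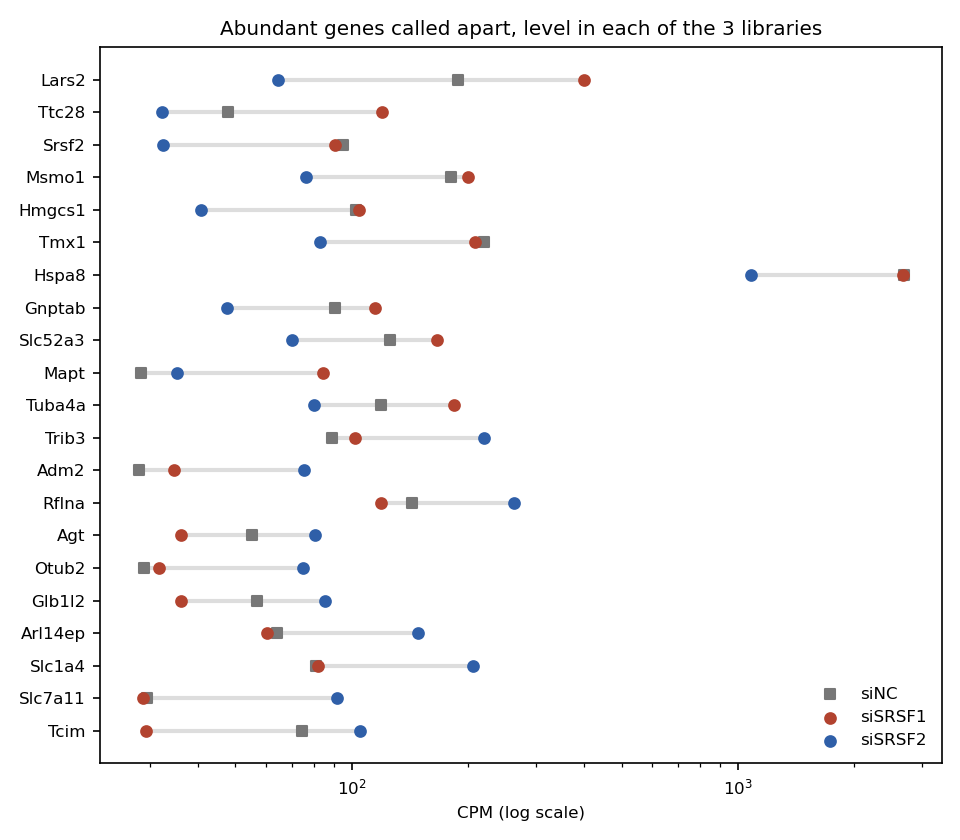
Level in CPM (x, log scale) in siNC (grey squares), siSRSF1 (red) and siSRSF2 (blue), 1 library each, for most of the called genes of 1000 reads or more that the naming rule took, ordered by the ratio of siSRSF1 to siSRSF2. Lars2 has the highest ratio, 6.17, and Tcim the lowest, 0.279; for Hspa8, Tmx1, Slc7a11 and Slc1a4 siNC and siSRSF1 nearly coincide.

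Genes of beta-cell identity were mostly close in the pair, with a few exceptions. Ins2, the main insulin gene in the mouse, took 2.48% of reads in siNC, 2.49% in siSRSF1 and 3.47% in siSRSF2, and its ratio was 0.741 (0.738 to 0.745). Ins1 stood at 1858, 2338 and 2663 CPM, a ratio of 0.878. Iapp (amylin) had a ratio of 1.14, Pdx1 1.15, Mafa 1.30, Nkx6-1 0.906, and the prohormone convertase genes Pcsk1 and Pcsk2 had 1.08 and 1.02. None of these 8 was called. Over 25 beta-cell transcription factors the median log2 ratio was -0.02, and over 31 genes of beta-cell function it was 0.11.

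Slc2a2 (chr3:28697903-28731359), which encodes the glucose transporter GLUT2, was the exception among genes of glucose sensing. It had 42 reads in siNC, 114 in siSRSF1 and 7 in siSRSF2, or 3.34, 7.95 and 0.467 CPM. All 3 levels were low, siNC lay between the pair, and the ratio was 15.9 (7.996 to 43.3). Bhlha15 (MIST1, chr5:144190286-144194441), a transcription factor of secretory cells, had 512, 448 and 85 reads and was low in siSRSF2 only, with a ratio of 5.48 (4.36 to 7.03). Foxa1, a pioneer factor, was called the other way on 21 and 45 reads. Prlr, the prolactin receptor, stood at 366, 202 and 389 CPM, low in siSRSF1 only, with a ratio of 0.519 (0.496 to 0.543). Slc30a8, the zinc transporter of insulin granules, stood at 323, 288 and 170 CPM, a ratio of 1.69 (1.61 to 1.78).

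Granule and hormone genes were split. Vgf, a granin-like precursor, stood at 538 CPM in siNC, 871 in siSRSF1 and 466 in siSRSF2, a ratio of 1.87, and the neuropeptide gene Npy stood at 399, 692 and 367 CPM, a ratio of 1.89. Cartpt, another neuropeptide gene, was called higher in siSRSF2 on 69 and 151 reads, with 155 in siNC. Sytl4 (granuphilin), which docks insulin granules, had a ratio of 1.94 (1.84 to 2.04). Over the lists, 12 of 25 genes of prohormone processing and 16 of 34 of exocytosis were higher in siSRSF1 and none was called. Of the genes normally kept silent in beta cells, Lmo4 and Nfib, both transcriptional regulators, were called higher in siSRSF2, with ratios of 0.380 and 0.435. That list was mixed, with a median log2 ratio of -0.03, 6 of 15 members higher in siSRSF1 and 1 called in that direction. Its scaled sums of reads had a ratio of 1.05.

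Among splicing factors other than the targets, 1 gene was called, Nova2. Of 23 SR protein genes, 17 were higher in siSRSF1, the median log2 ratio was 0.06, and Srsf2 itself was the only one called. Srsf11 stood at 267, 266 and 191 CPM in siNC, siSRSF1 and siSRSF2, a ratio of 1.39, and Srsf3 stood at 267, 268 and 197 CPM, a ratio of 1.36. In both, siSRSF2 was the low library. SR protein kinases, phosphatases and import factors had a median of -0.04 with none called. Core spliceosome genes had a median of 0.07, with 30 of 46 higher in siSRSF1 and none called, and U2af1, which reads the 3′ splice site, had the highest ratio, 1.56 (1.43 to 1.71).

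Among hnRNPs and other regulators, Nova2, a neuronal splicing regulator, was higher in siSRSF2, with 135, 126 and 266 reads and a ratio of 0.496 (0.397 to 0.614). Ptbp2, the neuronal PTB paralogue, had a ratio of 0.575, Qk (quaking) 0.581 and Hnrnpa1 1.56. Of 20 genes of nonsense-mediated decay and the exon junction complex, 9 were higher in siSRSF1 and the median was -0.01. The highest, Rbm8a, a core subunit of the junction complex, had a ratio of 1.77 (1.59 to 1.99). Splicing itself was not analysed, since counts per gene do not show it.

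The largest single differences were in genes with low levels. Arhgap36 (chrX:49463945-49500244), an inhibitor of protein kinase A, had 10 reads in siNC, 138 in siSRSF1 and 7 in siSRSF2, a ratio of 19.3 (9.73 to 52.2). Slco1a6, an organic anion transporter, had 29, 315 and 63 reads, a ratio of 5.19. Atg9b, of autophagy, had 61, 198 and 40 reads. Mcam, an adhesion molecule, had 37, 154 and 38 reads, and Ffar2, a receptor for short-chain fatty acids, had 34, 129 and 32. In all 5, siSRSF1 was the high library. The predicted gene Gm10800, outside the rule for named genes and chosen after its values were seen, had 65, 245 and 3 reads.

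Lars2 (chr9:123366927-123462666), the mitochondrial leucyl-tRNA synthetase, stood at 189 CPM in siNC, 399 in siSRSF1 and 64.6 in siSRSF2. The pair lay on opposite sides of siNC, and the ratio of 6.17 (5.77 to 6.61) was the highest among named genes with at least 1000 reads. Ttc28, a protein with tetratricopeptide repeats, stood at 48.0, 120 and 32.3 CPM, a ratio of 3.70 (3.34 to 4.10). The sources used here do not say how reads that fit several places were counted.

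On the other side, Pcdh20, a protocadherin, had 36 reads in siNC, 18 in siSRSF1 and 119 in siSRSF2, a ratio of 0.162 (0.0906 to 0.261). Bmf, a BH3-only promoter of apoptosis, had 122, 49 and 232 reads, a ratio of 0.222 (0.159 to 0.301). In both, the pair lay on opposite sides of siNC. Satb1, a chromatin organiser, had 186, 102 and 382 reads, a ratio of 0.280. Tcim, a small regulator of transcription, stood at 74.4, 29.4 and 105 CPM, a ratio of 0.279 (0.2497 to 0.311). Angptl8, a secreted inhibitor of lipoprotein lipase, had 115, 116 and 386 reads and Abcd2, a peroxisomal fatty acid transporter, had 100, 90 and 293. Lrrc17, a secreted leucine-rich repeat protein, had 67, 64 and 264 reads. In these last 3, siSRSF2 alone was high.

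Adm2 (adrenomedullin 2, a peptide hormone) stood at 28.1 CPM in siNC, 34.6 in siSRSF1 and 75.1 in siSRSF2, a ratio of 0.461 (0.414 to 0.512), and Otub2, a deubiquitinase, stood at 29.0, 31.8 and 74.7 CPM, a ratio of 0.426. Agt (angiotensinogen) stood at 55.3, 36.1 and 80.5 CPM, a ratio of 0.449. The first 2 were high in siSRSF2 alone, and Agt had siNC between the pair.

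Genes that respond quickly to signals were mostly lower in siSRSF1 than in siSRSF2. Of 41 immediate early genes and MAPK phosphatases, 30 were higher in siSRSF2, with a median log2 ratio of -0.27 and 3 called. Nr4a3, an orphan nuclear receptor, had 74, 27 and 100 reads in siNC, siSRSF1 and siSRSF2, a ratio of 0.286 (0.177 to 0.435). Dusp6, which dephosphorylates ERK, stood at 60.5, 30.6 and 63.8 CPM, a ratio of 0.479 (0.427 to 0.537). Npas4, induced by calcium influx, stood at 22.7, 15.5 and 31.99 CPM, a ratio of 0.485 (0.411 to 0.569). Nr4a1 had a ratio of 0.540, with 123, 69.7 and 129 CPM. In Dusp6 and Nr4a1 siSRSF1 was the low library and siNC lay near siSRSF2.

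Clock genes had the same direction. Of 22, 17 were higher in siSRSF2, the median log2 ratio was -0.28, and 2 were called. Nfil3, a repressor of D-box genes, stood at 23.9 CPM in siNC, 20.6 in siSRSF1 and 52.7 in siSRSF2, a ratio of 0.391 (0.341 to 0.447). Arntl (BMAL1), the core activator of the clock, stood at 14.5, 12.2 and 25.3 CPM, a ratio of 0.483 (0.401 to 0.579). Against siNC the clock list had medians of -0.06 in siSRSF1 and 0.34 in siSRSF2, and the immediate early list 0.08 and 0.24. The sources used here do not give the times at which the cultures were collected.

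Lists of growth, death and interferon signalling had medians nearer to 0 and few calls. Targets of p53 had a median log2 ratio of 0.18, and the well-known targets Cdkn1a (p21) and Mdm2 had ratios of 1.24 and 1.03. Phlda3, an inhibitor of AKT, was called higher in siSRSF1 on 84 and 32 reads, and Tnfrsf10b, a death receptor, on 29 and 12. Apoptosis regulators had a median of -0.10 with Bmf, described above, and Bok, a pro-apoptotic BCL2 relative with 193 and 91 reads, called in opposite directions. The list of interferon and RNA sensing had a median of -0.17 over 18 genes. Oasl1 was called higher in siSRSF1 on 166 and 73 reads, and Ddx58 (RIG-I) higher in siSRSF2 on 10 and 32. The list of insulin and growth factor signalling had a median of -0.04 over 29 genes, and its 1 called gene, Grb10, an adaptor that restrains insulin receptor signalling, was higher in siSRSF1 on 24 and 6 reads. Igf2, the growth factor gene next to Ins2, stood at 49.9, 120 and 68.3 CPM, a ratio of 1.75.

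Markers of other cell types were read in the same way. Hormone genes of other islet cells had reads in every library. Gcg (glucagon) had 1494, 2016 and 2029 reads in siNC, siSRSF1 and siSRSF2. Sst (somatostatin) had 262, 339 and 199 in that order, a ratio of 1.78 (1.49 to 2.13), and Ppy (pancreatic polypeptide) had 16, 22 and 11. The exocrine genes Cpa1, Cela2a, Prss2 and Ctrb1 had 0 reads in every library, and Krt19, Col1a2 and Ptprc had at most 1. Krt8 and Krt7, keratins of simple epithelia, were called higher in siSRSF1, with ratios of 3.33 (2.79 to 4.01) and 2.20 (1.92 to 2.52). Spp1 (osteopontin), the remaining member of the acinar and ductal list that was compared, was lower in siSRSF1, with 2529, 1596 and 2840 reads in siNC, siSRSF1 and siSRSF2 and a ratio of 0.587 (0.552 to 0.625), and the scaled sum over the list had a ratio of 0.873. Cd68, a lysosomal protein typical of macrophages, had 56, 232 and 55 reads in siNC, siSRSF1 and siSRSF2, and Lyve1, a hyaluronan receptor of lymphatic endothelium and some macrophages, had 110, 542 and 93, a ratio of 6.06. The complement gene C1qa, looked up after these values were seen, had 87, 401 and 140 reads, a ratio of 2.99 (2.46 to 3.65). Defining macrophage genes were at or near 0 in the same libraries, with 0 reads for Adgre1, Itgam, C1qb and C1qc and at most 4 for Csf1r. The list of fibroblast, endothelial and immune genes summed to 73, 256 and 74 reads, most of them Cd68. The part of other cells in the results was not tested.

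The ratio varied with the structure of genes across the genome. In the decile of genes with the longest span the median log2 ratio was -0.14 and 4.95% of genes were called higher in siSRSF2. In the decile with the shortest span it was 0.10, with 4.27% called higher in siSRSF1. Spearman's rho of the log2 ratio across genes was -0.168 with span, -0.154 with the deposited gene length, 0.141 with GC content and -0.030 with exon number. Exon number was that of the longest annotated transcript, which has 1 exon for Arntl and for Fdps, so the last value is uncertain. GC content was taken from the same transcripts, so the value for GC content and the GC correction share this limit. These are descriptions over genes of the same 2 libraries. After a correction for GC content, 220 and 262 of the genes called in the 2 directions kept their call. The corrected medians were -0.60 for the ATF4 list, 0.40 for ER chaperones and 0.54 for cholesterol and fatty acid synthesis. The part of gene structure in single ratios was not tested further. Calls were concentrated at low read numbers, with 11.7% and 14.2% of genes called in the decile with the fewest reads.

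**Figure D5:**
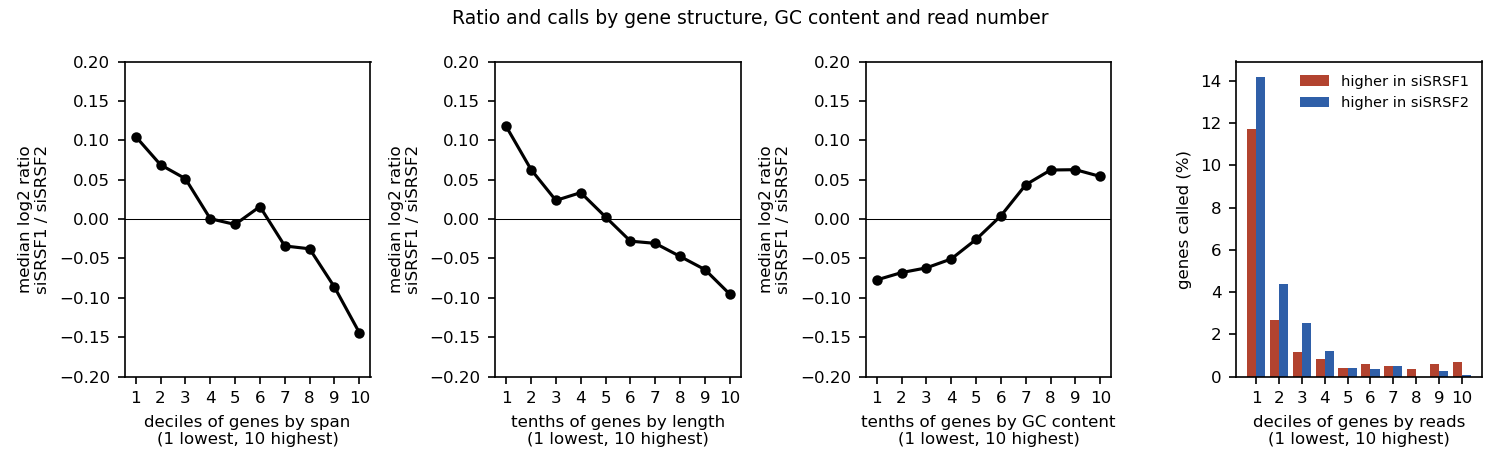
Median log2 ratio of siSRSF1 to siSRSF2 (y) in deciles of the compared genes ordered by span, length and transcript GC content, and the percentage of genes called in each direction in deciles by mean reads. Medians run from 0.10 to -0.14 over deciles of span, and calls lie mostly in the deciles with the fewest reads.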

How the data were processed

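The deposited table gives, per the file headers, 1 whole-number read count and 1 FPKM per gene and library, computed by the authors. The FPKM equals the count per length and column total within 0.00045 percent and was otherwise not used. Per the submitters' processing notes, Bowtie2 2.4.2 and mm10 (GRCm38) were used. The sources used here do not name the counting tool, the treatment of reads that fit several genes or strand use. Of 21935 lines, 67 that share a symbol were summed.

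Counts were scaled by the trimmed mean of M values (edgeR 4.0.16, R 4.3.3) over the pair for ratios and over 3 libraries for CPM. Ratios had a prior of 0.5 reads in proportion to depth and an exact 95% Clopper-Pearson interval (scipy 1.17.1). Intervals cover counting error only. The ratio and call code was tested on simulated counts. GC content and exon number came from the longest transcript of each gene in GENCODE M21, with a GC value for 99.5% of symbols. GC correction used a lowess curve (fraction 0.3).

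The 37 gene lists have 1341 entries, of which 14 had no match. The genes, lists and promoter elements were chosen with earlier results of these data known. Genes named were both targets, the 12 highest and 12 lowest called ratios with at least 100 and with at least 1000 reads (predicted genes left out), up to 4 members per list farthest from 1 with at least 50 reads, and 10 beta-cell genes. Some genes the rule takes are not reported here. Other names are list members given for their role, called list members, or genes said to be chosen after their values were seen. The alternatives are other scalings, read minimums, priors, folds and corrections for GC and length.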

Additional observations from a re-analysis of the deposited data

How the results depend on the processing

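With no minimum of reads, 436 genes were called higher in siSRSF1 and 408 in siSRSF2, so that 51.7% of the calls were higher in siSRSF1, against 45.0% with the minimum of 20. With at least 100 reads, 87 and 108 were called higher in siSRSF1 and siSRSF2. A 1.5-fold limit called 676 and 891, and a 3-fold limit 82 and 74. Under the other alternatives (scaling, prior, corrections for GC and length) the counts ranged from 204 to 231 and from 263 to 328. Plain totals and totals without insulin reads moved the median of all genes to -0.05 and -0.06. Among the named genes, Dnajb9 was at 1.999 with median-of-ratios factors, 1.95 with plain totals, 1.93 without insulin reads and 1.95 after length correction, each under the limit. Sdf2l1 was at 1.92 and Nova2 at 0.516 after length correction, and Syn2 at 1.995 without insulin reads. Another 11 values of named genes passed the limit under an alternative, and 1597 kept their side of it. List medians ranged from -0.64 to -0.54 for ATF4, from 0.38 to 0.43 for ER chaperones, from 0.45 to 0.54 for cholesterol and fatty acid synthesis and from 0.65 to 0.98 for histones. For cytosolic ribosomal proteins they ranged from 0.03 to 0.12 and for nuclear genes of the respiratory chain from 0.06 to 0.19. For mitochondrially encoded genes they ranged from 0.12 to 0.39. The lists of SR protein kinases, hnRNPs, decay, beta-cell transcription factors, exocytosis, peptide hormones, silenced genes, interferon, growth factor and neuronal genes changed sign or reached 0 under 1 to 3 alternatives. No paired analysis was possible because each group has 1 library, and leaving out a library leaves no comparison.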

Other observations

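Gene families outside the lists, chosen after their values were seen, leaned in either direction. Of 44 protocadherin genes, cell adhesion proteins of which many are neuronal, 28 were higher in siSRSF2, with a median log2 ratio of -0.21 (-0.18 after GC correction), 8 called in that direction and 2 in the other. Over all compared genes, 2.4% and 1.96% were called in these directions. Of the 44, 9 had under 20 reads in one library and so passed only through the library where they were high. Of 323 zinc finger genes of the Zfp series, 202 were higher in siSRSF2 with a median of -0.10 (-0.08 after GC correction). Of these 323, 5 were called in that direction and 1 in the other. For comparison, compared genes in the decile of longest span had a median of -0.14, and those in the decile of fewest reads -0.13. Kruppel-like factors had a median of -0.35 with 10 of 12 higher in siSRSF2 and none called, and semaphorins had -0.32 with 10 of 14. Among these 14, 2 had under 20 reads in one library. Mitochondrial ribosomal protein genes leaned the other way, with 54 of 77 higher in siSRSF1, a median of 0.17 and none called.

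Some genes were far from siNC in both siRNA libraries while the pair was close. Scand1, a small SCAN domain protein, had 12 reads in siNC, 171 in siSRSF1 and 159 in siSRSF2. Pcsk1n (proSAAS), an inhibitor of the convertase PCSK1, stood at 126 CPM in siNC, 585 in siSRSF1 and 841 in siSRSF2. Mafa, an insulin gene activator, stood at 362, 894 and 688 CPM. The ratios of the pair do not use the siNC library.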
